A study of Mus musculus with 8 samples.

Results

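The genes described here are 48 genes of DNA replication and S phase, measured in the skin of Adam10 knockout (KO) and wild-type (WT) mice. They were chosen by name as 48 of the 19935 genes tested, and each is represented by the probe set that the platform annotation gives to that gene alone. Pcna and Tk1 have 2 such probe sets, and the one with the higher mean was used. All 48 were measured and no filter on low values was applied. Expression was measured with 1 Affymetrix Mouse Gene 1.0 array per sample, in 4 KO and 4 WT samples. Adam10 encodes a membrane protease that sheds surface proteins and cleaves Notch receptors, and the study asks what changes in skin when it is lost. The labels name the samples as skin and also as primary skin cells. The titles call the knockouts cKO, which usually means a conditional knockout, with the numbers P67, P68, P69 and P55 for KO arrays 1 to 4 and P57 to P60 for WT arrays 1 to 4. Whether these numbers are animals or ages is not stated, nor are the strain, age, sex, Cre driver or deleted exons. The labels do not say that each array is a separate animal, so p-values measure the spread between these samples. Values are log2 of the deposited intensities, differences are KO minus WT on the log2 scale, and arrays give no read depth.

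Adam10 itself had log2 intensities of 6.85, 6.998, 7.04 and 6.79 in KO arrays 1 to 4, against 7.39, 7.33, 7.06 and 7.34 in WT arrays 1 to 4. All KO values lay below all WT values (exact two-sided permutation p = 0.0286, the smallest that 70 assignments allow), and the difference of -0.36 (SE 0.11) missed the threshold over all genes (limma adjusted p = 0.0641). Whether the probes lie within the deleted part of the gene is not stated. Array medians were 13.3 to 14.1 intensity units in KO and 14.1 to 15.1 in WT. WT array 4 stood apart on the first principal component, at 61.2 against -24.9 to 17.5 on the other 7 arrays. Skeletal muscle markers summed to 1029 intensity units on WT array 3 and 6478 on WT array 4, and to 205 to 270 on the other arrays. The Y-linked gene Eif2s3y was low on KO arrays 1 and 4 and WT array 1 and high on the other 5. Xist showed the reverse, at 6.53 and 6.86 on KO arrays 1 and 4 and 7.22 on WT array 1, against 1.63 to 2.25 on the other 5. The genotypes were therefore not balanced for this sex-linked pattern. The keratinocyte genes Krt14 and Krt10 were bright in both genotypes, with Krt14 at a mean log2 of 12.01 in KO and 11.38 in WT and Krt10 at 12.28 in KO and 12.45 in WT. Not all keratinocyte genes were bright, as Krt2 had means of 2.98 in KO and 2.76 in WT.

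A cell copies its DNA once per division. In G1 the origin recognition complex, with Cdc6 and Cdt1, loads the ring of Mcm2 to Mcm7 onto origins. At the start of S phase Cdc45 and the GINS complex turn that ring into the replicative helicase, and primase, polymerases, the sliding clamp Pcna and its loader follow behind it. Many of these genes are switched on together in late G1 by E2F transcription factors, once cyclin-dependent kinases have inactivated the retinoblastoma protein. In the epidermis division is known to take place mainly in the basal layer, and in the hair follicle in the matrix.

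Promoters of 16 of the genes hold a form of the sequence that E2F factors are known to bind. RefSeq promoter windows (GRCm38.p6, 250 bases before to 50 bases after a start) were found for 40 of the 48 genes. Ccne2, Exo1, Gins1, Gins2, Mcm4, Pole, Prim2 and Tipin were not matched. An E2F word (TTTCCCGC, TTTCGCGC, TTTGCCGC or TTTGGCGC, on either strand, overlapping words each counted) was in a window of 16 of the 40 (40%), against 2.6% of the 27025 genes with windows and 1 of 26 mitosis genes (3.85%). Per window the share was 34% of the 47 windows of these genes and 2.26% of all 32851 windows. The cell cycle homology region (CHR) word TTTGAA, known from promoters of mitotic genes, was in 6 of the 40 (15%), 19 of 26 mitosis genes (73.1%) and 20.2% of all genes. The word CCAAT was in 25 of the 40 (62.5%), 20 of 26 mitosis genes (76.9%) and 41.1% of all genes. Among the genes called higher in KO, 5 of 14 with a window held an E2F word, and among those not called 11 of 26 did. A matched word describes the window and does not show that a factor binds there. The stretches below belong to the 4 genes that were called higher and hold an E2F word before the start. They end at the last base before the gene's first annotated start, read 5′ to 3′ on the gene's strand, and show E2F words of either strand in capitals.
Mcm6, chr1:128359706-128359955, minus strand: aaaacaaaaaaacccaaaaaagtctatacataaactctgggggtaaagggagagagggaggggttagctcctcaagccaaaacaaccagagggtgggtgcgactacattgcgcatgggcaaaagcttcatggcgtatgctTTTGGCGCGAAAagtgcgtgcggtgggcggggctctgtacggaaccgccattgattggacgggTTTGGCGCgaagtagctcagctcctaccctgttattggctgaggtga
Mcm5, chr8:75109259-75109467, plus strand: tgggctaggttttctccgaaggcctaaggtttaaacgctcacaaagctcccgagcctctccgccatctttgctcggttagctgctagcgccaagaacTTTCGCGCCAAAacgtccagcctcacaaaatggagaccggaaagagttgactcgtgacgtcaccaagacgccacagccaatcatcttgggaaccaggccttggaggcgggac
Rfc3, chr5:151651209-151651458, minus strand: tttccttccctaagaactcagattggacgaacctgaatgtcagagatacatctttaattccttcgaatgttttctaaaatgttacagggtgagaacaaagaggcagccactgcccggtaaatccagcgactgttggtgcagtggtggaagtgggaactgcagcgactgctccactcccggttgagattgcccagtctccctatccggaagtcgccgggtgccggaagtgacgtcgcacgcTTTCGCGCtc
Gins3, chr8:95633309-95633558, plus strand: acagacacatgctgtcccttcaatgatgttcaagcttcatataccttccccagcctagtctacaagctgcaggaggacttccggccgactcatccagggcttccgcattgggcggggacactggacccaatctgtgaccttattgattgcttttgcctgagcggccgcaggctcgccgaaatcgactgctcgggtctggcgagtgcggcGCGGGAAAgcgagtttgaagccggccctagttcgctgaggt
In Mcm6 there are 3 words, an overlapping pair that begins 110 bases before the start and a single word that begins 47 bases before it. In Mcm5 an overlapping pair begins 112 bases before the first annotated start. The word shown in Rfc3 begins 10 bases before the start, and the word in Gins3, on the opposite strand, spans bases 41 to 34 before the start.

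**Figure D1:**
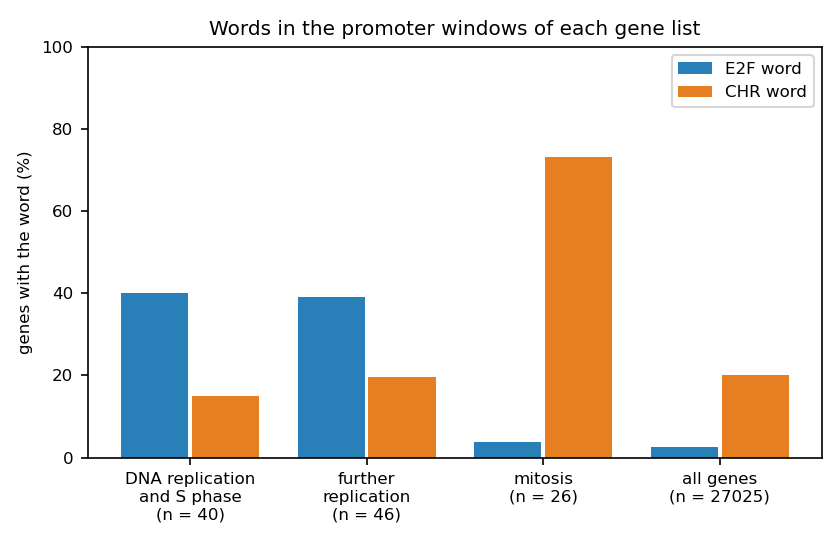
Share of genes (percent, vertical axis) whose promoter windows hold an E2F word (blue) or the CHR word (orange), for the 40 matched DNA replication and S phase genes, 46 further replication genes, 26 mitosis genes and all 27025 genes with windows. E2F words were in 40% of the replication genes and 3.85% of the mitosis genes, and the CHR word in 15% and 73.1%.

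DNA replication genes were higher in Adam10 KO skin. Of the 48 genes 16 rose and 0 fell (limma, Benjamini-Hochberg adjusted p below 0.05 over all 19935 genes), while 6.41% of all genes rose and 2.34% fell. At an unadjusted p below 0.05, 30 of the 48 were higher and 0 lower, against 16.3% of all genes higher. The changes were small. The median difference was 0.40, a 1.32-fold level, against 0.0027 over all genes tested, and the 48 differences ran from 0.028 for E2f2 to 0.75 for Orc6. The difference was above 0 for 48 of 48 genes as deposited, against 50.4% of all genes, and for 43 of 48 after quantile normalization or cyclic loess. The share of all genes above 0 is not given for those normalizations. The median difference of all genes was 0.0082 after quantile normalization and -0.0096 after cyclic loess. Every KO array was above every WT array for 25 of the 48 genes, against 12.2% of all genes, and every KO array below every WT array for 0 of the 48, against 5.86% of all genes. The mean level of the genes lay at or above the median gene for 45 of 48, where Orc1, Gins3 and Ccne2 lay below it, and among all genes at or above that median 12% rose, 3.22% fell and the median difference was 0.11.

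The count of 16 depended on which arrays were used. Without KO array 2 there were 4 calls (2.14% of all genes higher), without KO array 3 there were 5 (2.96%), without KO array 4 there were 8 (5%) and without KO array 1 there were 15 (3.42%). Without WT array 3 there were 6 calls (2.74% of all genes higher), without WT array 2 there were 8 (3.72%), without WT array 4 there were 15 (6.77%) and without WT array 1 there were 19 (7.11%). With both WT arrays that carried muscle signal left out (arrays 3 and 4, a choice made after the data were seen), Prim1 and Rfc3 remained called (2.96% of all genes higher), the median difference was 0.28 and 45 of the 48 were above 0. The median difference of all genes in that fit was 0.0081. Mcm6, Prim1, Rfc3 and Fen1 kept their calls in all 8 fits with 1 array left out. Rfc3 was also called in each of the 20 alternatives that kept the 0.05 threshold.

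**Figure D2:**
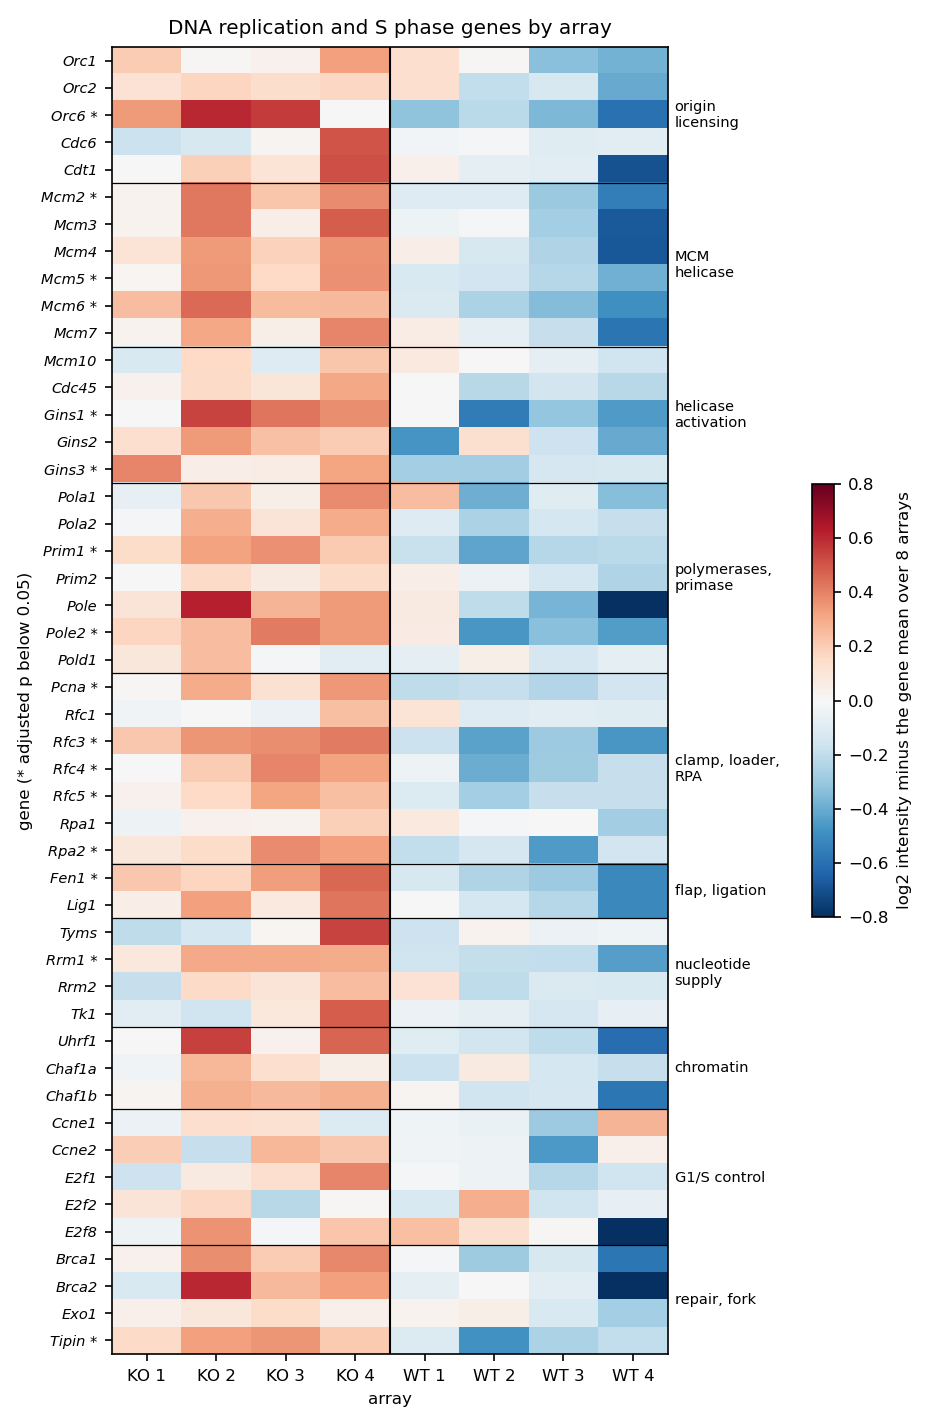
Log2 intensity of each of the 48 genes (rows, in groups by role) minus that gene's mean over the 8 arrays (columns, KO arrays left of the line, WT arrays right), with red above and blue below the mean and the colour scale ending at -0.8 and 0.8. Genes marked * are the 16 called higher, most rows are red on KO arrays 2 to 4 and blue on WT arrays 2 to 4, and KO array 1 and WT array 1 are the palest of their groups.

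Origin recognition and licensing was led by Orc6, the smallest subunit of the origin recognition complex. It had log2 intensities of 6.20, 6.46, 6.42 and 5.86 in KO arrays 1 to 4, against 5.53, 5.64, 5.50 and 5.26 in WT arrays 1 to 4. The lowest KO value, on array 4, was still above the highest WT value, and Orc6 rose by 0.75 (SE 0.14, adjusted p = 0.0134), or 1.68-fold, the largest difference of the 48. It lost its call without KO array 2 (adjusted p = 0.0533). Cdc6, the ATPase that brings the Mcm ring to origins, had 5.01, 5.06, 5.21 and 5.68 in KO, against 5.16, 5.17, 5.09 and 5.10 in WT. KO array 4 stood above all other arrays, KO arrays 1 and 2 lay below every WT array, and the difference of 0.11 was within the spread between arrays (95% interval -0.21 to 0.43, adjusted p = 0.669). Cdt1, which partners Cdc6 in loading, differed by 0.41 and the subunits Orc1 and Orc2 by 0.28 and 0.30, and none of the 3 passed (adjusted p 0.142 to 0.229).

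All 6 subunits of the Mcm2 to Mcm7 ring, the motor of the replicative helicase, were higher in KO by similar amounts, from 0.39 for Mcm7 to 0.60 for Mcm6, and 3 of them passed. Mcm6 had log2 intensities of 7.77, 7.97, 7.77 and 7.78 in KO, against 7.41, 7.27, 7.17 and 7.03 in WT. The groups did not overlap, KO array 2 was the highest and WT array 4 the lowest, and Mcm6 rose by 0.60 (SE 0.11, adjusted p = 0.00883). Mcm2 rose by 0.52 (adjusted p = 0.0369) and Mcm5 by 0.44 (adjusted p = 0.0359). Mcm3 and Mcm4 differed by 0.50 and 0.50, with no overlap between groups, and missed the threshold (adjusted p = 0.0942 and 0.0674). Mcm7, with the largest p of the 6, had 7.49, 7.77, 7.51 and 7.86 in KO, against 7.52, 7.39, 7.28 and 6.88 in WT. Its groups overlapped, because WT array 1 lay above KO arrays 1 and 3, and the difference of 0.39 (SE 0.15) did not pass (adjusted p = 0.136). The summed intensity of the 6 subunits was 987 to 1220 units on KO arrays and 636 to 903 on WT arrays, lowest on WT array 4. Mcm2 lost its call without KO array 2, 3 or 4 or WT array 2 or 3, and Mcm5 without those or WT array 4, while Mcm4 gained one without WT array 1.

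Among the 5 factors that activate the ring, the GINS subunits Gins1 and Gins3 rose, and Gins2, Cdc45 and Mcm10 did not pass. Gins1 had 4.76, 5.30, 5.19 and 5.14 in KO, against 4.76, 4.21, 4.45 and 4.31 in WT. KO array 1 equalled the highest WT array, number 1, to 2 decimals and lay just above it, and the other 3 KO arrays lay well above. Gins1 rose by 0.67 (SE 0.15, adjusted p = 0.025) and Gins3 by 0.41 (adjusted p = 0.0438), while Gins2 differed by 0.46 (adjusted p = 0.0631). The remaining GINS subunit Gins4, from the list of further replication genes, differed by 0.35 (adjusted p = 0.0772). Cdc45, which joins GINS and the Mcm ring in the active helicase, differed by 0.30 with no overlap between groups (adjusted p = 0.0943). Mcm10, a factor that helps the assembled helicase start unwinding, had 4.66, 4.94, 4.68 and 5.001 in KO, against 4.86, 4.78, 4.70 and 4.62 in WT. The groups were mixed and its difference was 0.078 (95% interval -0.17 to 0.32, adjusted p = 0.701). Gins1 lost its call without KO array 2, 3 or 4 or WT array 2 or 3. Gins3 lost it without any 1 array but WT array 4, and Gins2 gained one without WT array 2.

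Of the 7 polymerase and primase genes Prim1 and Pole2 rose. Prim1, the catalytic subunit of the primase that makes RNA primers, had 6.57, 6.75, 6.79 and 6.63 in KO, against 6.25, 6.01, 6.20 and 6.21 in WT. The groups were separated by more than either group's range, and Prim1 rose by 0.52 (SE 0.097, adjusted p = 0.0112). Its partner Prim2, the large primase subunit, differed by 0.19 (95% interval -0.028 to 0.40, adjusted p = 0.26). Of the leading-strand polymerase the subunit Pole2 rose by 0.59 (adjusted p = 0.0226). The catalytic subunit Pole differed by 0.67 with a larger spread between arrays (SE 0.18) and missed the threshold (adjusted p = 0.0505). Its small subunits Pole3 and Pole4, from the list of further replication genes, differed by -0.0046 and 0.32 and did not pass (adjusted p = 0.982 and 0.0967). Pold1, the catalytic subunit of the polymerase known for the lagging strand, had 5.71, 5.87, 5.61 and 5.53 in KO, against 5.55, 5.67, 5.49 and 5.54 in WT. KO array 4 lay below WT arrays 1, 2 and 4, and the difference of 0.12 did not pass (95% interval -0.10 to 0.34, adjusted p = 0.497). The polymerase alpha subunits Pola1 and Pola2 differed by 0.29 and 0.34 (adjusted p = 0.281 and 0.0639). Pole2 lost its call without KO array 2 or 3 or WT array 2 or 3, and Pole gained one without WT array 1.

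The role of clamp, clamp loader and single-strand binding held the most calls, 5 of 7, of which Pcna and 3 loader subunits made up 4 and Rpa2 the other. Rfc3, a subunit of the loader that opens the clamp, had 6.54, 6.68, 6.70 and 6.74 in KO, against 6.15, 5.90, 6.03 and 5.86 in WT. The lowest KO array was well above the highest WT array, and Rfc3 rose by 0.68 (SE 0.099, adjusted p = 0.00444), or 1.60-fold, with the smallest p of the 48. The loader subunits Rfc4 and Rfc5 rose by 0.45 (adjusted p = 0.0404) and 0.37 (adjusted p = 0.0374). Pcna, the sliding clamp, had 8.55, 8.84, 8.66 and 8.89 in KO, against 8.34, 8.36, 8.31 and 8.39 in WT. The WT arrays lay within 0.08 of each other, the KO arrays were all above them, and Pcna rose by 0.39 (SE 0.099, adjusted p = 0.0393). Its second probe set gave 0.39, with values close to the first on every array (8.56, 8.83, 8.65 and 8.89 in KO, 8.34, 8.34, 8.34 and 8.37 in WT). Whether the probe sets measure different sequence was not tested, so they are not independent support. Rfc1, the large subunit that also has roles in repair, had 6.43, 6.46, 6.41 and 6.70 in KO, against 6.56, 6.35, 6.37 and 6.36 in WT. Both groups had 1 high array, KO array 4 and WT array 1, and the difference of 0.085 (95% interval -0.14 to 0.31, adjusted p = 0.643) turned negative after quantile normalization (-0.033) or cyclic loess (-0.066). Of the single-strand binding complex Rpa2 rose by 0.47 (adjusted p = 0.0282), and Rpa1 differed by 0.11 (adjusted p = 0.57), negative under the same normalizations (-0.012 and -0.038). Rfc4, Rfc5 and Rpa2 lost their calls without KO array 2, 3 or 4 or WT array 2 or 3, and Pcna without those or WT array 1.

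Both enzymes that finish lagging-strand fragments were higher on every KO array. Fen1, the nuclease that trims flaps, had 5.80, 5.75, 5.92 and 6.04 in KO, against 5.45, 5.34, 5.29 and 5.07 in WT. It rose by 0.59 (SE 0.11, adjusted p = 0.0123), with WT array 4 the lowest and KO array 4 the highest. Lig1, the ligase that seals the fragments, had 6.75, 7.02, 6.77 and 7.13 in KO, against 6.70, 6.55, 6.47 and 6.18 in WT. KO array 1 lay just above WT array 1, and the difference of 0.44 (SE 0.14) missed the threshold (adjusted p = 0.0704), which it passed without WT array 1 (adjusted p = 0.0483).

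The genes of nucleotide supply had the lowest median difference of the 10 roles, 0.16, and 1 of 4 rose. Rrm1, the large subunit of ribonucleotide reductase, had 8.26, 8.48, 8.48 and 8.47 in KO, against 8.02, 7.98, 7.98 and 7.74 in WT. It rose by 0.49 (SE 0.10, adjusted p = 0.0165) with no overlap, and lost its call without KO array 2 or 3. Rrm2, the small subunit whose level is known to follow S phase, differed by 0.16 (95% interval -0.10 to 0.42, adjusted p = 0.423). Tyms, which makes thymidylate, had 6.21, 6.27, 6.42 and 6.95 in KO, against 6.25, 6.43, 6.37 and 6.38 in WT. KO array 4 lay above all other arrays and the other 3 KO arrays lay within the range of WT or below it. The difference of 0.11 did not pass (95% interval -0.23 to 0.45, adjusted p = 0.701) and was -0.054 without KO array 4, -0.0081 after quantile normalization and -0.042 after cyclic loess. Tk1, the thymidine salvage kinase, also had its highest value on KO array 4, at 7.09 against 6.45 to 6.70 on the other KO arrays and 6.47 to 6.57 on WT arrays, with a difference of 0.16 (adjusted p = 0.495). Its second probe set gave 0.20 (adjusted p = 0.465).

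None of the 3 genes that copy chromatin passed. Uhrf1, which guides maintenance methylation of new DNA, had 7.29, 7.84, 7.32 and 7.76 in KO, against 7.19, 7.14, 7.09 and 6.68 in WT. KO arrays 2 and 4 were high, KO arrays 1 and 3 lay close above WT array 1, and the difference of 0.53 (SE 0.16) missed the threshold (adjusted p = 0.0716). Chaf1a, the large subunit of the assembly factor that places histones behind the fork, had 5.76, 6.05, 5.92 and 5.83 in KO, against 5.61, 5.86, 5.64 and 5.60 in WT. Its groups overlapped through WT array 2, and the difference was 0.21 (95% interval -0.019 to 0.44, adjusted p = 0.234). The partner subunit Chaf1b differed by 0.42 (adjusted p = 0.0804).

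The regulators of the G1 to S step gave 0 calls among 5 genes, and the KO and WT arrays overlapped for each. The smallest p was that of E2f1, an activating E2F factor, which had 5.05, 5.28, 5.34 and 5.60 in KO, against 5.20, 5.17, 4.98 and 5.05 in WT. KO array 1 lay below WT arrays 1, 2 and 4, and the difference of 0.22 did not pass (95% interval -0.056 to 0.49, adjusted p = 0.301). E2f2, another activator, had 5.31, 5.37, 4.98 and 5.21 in KO, against 5.08, 5.49, 5.04 and 5.14 in WT. The highest array was a WT one and the lowest a KO one, and the difference was 0.028 (95% interval -0.26 to 0.31, adjusted p = 0.918). Cyclin E1 (Ccne1) and cyclin E2 (Ccne2), which activate the kinase Cdk2 at this step, differed by 0.051 (95% interval -0.23 to 0.33) and 0.24 (95% interval -0.07 to 0.56). E2f8, a repressor of the family, differed by 0.27 with the widest interval of the 48 (-0.24 to 0.77), and its WT array 4 lay at 4.74 against 5.65 to 5.89 on WT arrays 1 to 3. The directions of E2f2 and Ccne1 turned negative after quantile normalization (-0.047 and -0.044) or cyclic loess (-0.045 and -0.044), and those of E2f2 and E2f8 without WT arrays 3 and 4 (-0.072 and -0.052). Whether these regulators differ from the replication enzymes in their response was not tested.

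Of the 4 repair and fork protection genes Tipin, which with Timeless holds the fork together, had 6.65, 6.82, 6.85 and 6.70 in KO, against 6.39, 6.01, 6.24 and 6.29 in WT. It rose by 0.52 (SE 0.11, adjusted p = 0.0161) with no overlap between groups, and lost its call without KO array 2 or 3 or WT array 3. Exo1, an exonuclease of mismatch repair, had 4.79, 4.84, 4.90 and 4.79 in KO, against 4.78, 4.79, 4.63 and 4.48 in WT. WT arrays 1 and 2 lay at the level of the lower KO arrays, and the difference of 0.16 did not pass (95% interval -0.06 to 0.38, adjusted p = 0.344). Brca1 and Brca2, which act in homologous recombination, differed by 0.50 (adjusted p = 0.0503) and 0.53 (adjusted p = 0.154). Both were lowest on WT array 4, and Brca1 passed without WT array 1 (adjusted p = 0.0341).

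**Figure D3:**
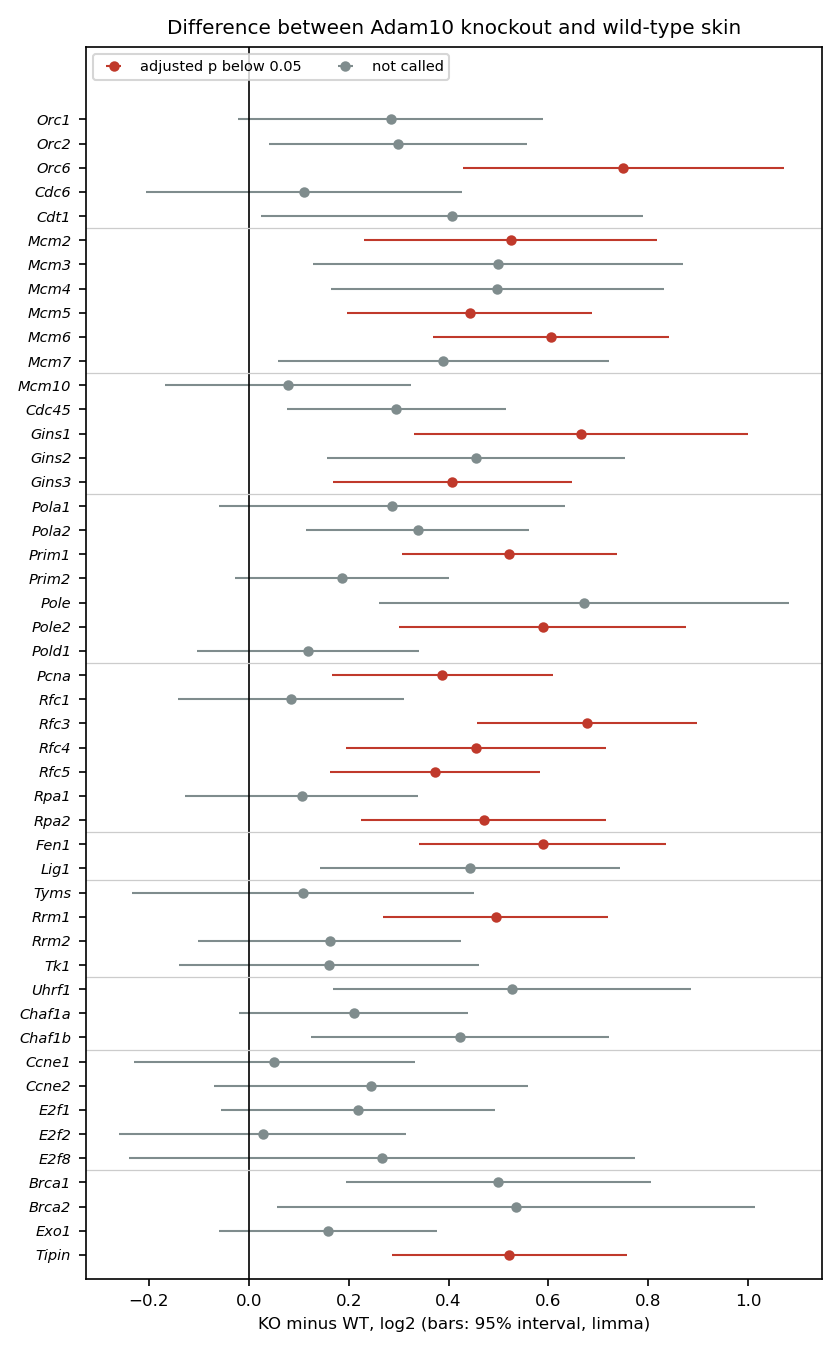
Difference between KO and WT in mean log2 intensity (horizontal axis) for each of the 48 genes, in order of role, with bars for the 95% interval from limma (n = 4 arrays per group). Red marks the 16 genes with an adjusted p below 0.05, and the 48 points lie between 0.028 and 0.75, all right of 0 with the values as deposited and 43 of 48 after quantile normalization or cyclic loess.

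**Figure D4:**
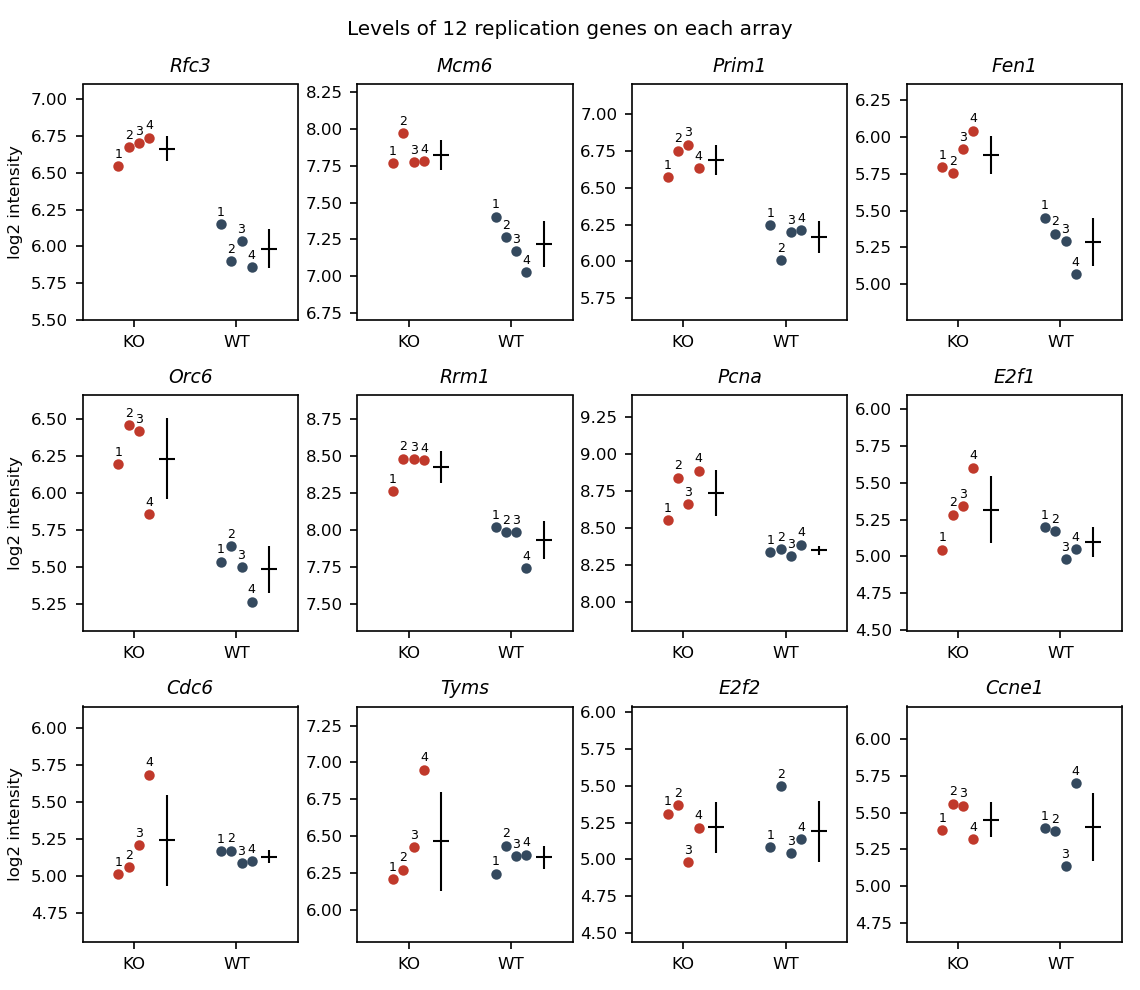
Log2 intensity on each array (numbered points, KO in red left of WT in dark blue) for 12 genes, with the mean and SD of each group (n = 4) as a black bar beside the points and each panel spanning 1.6 log2 units. Rfc3, Mcm6, Prim1, Fen1, Orc6, Rrm1 and Pcna show KO arrays above all WT arrays, while E2f1, Cdc6, Tyms, E2f2 and Ccne1 overlap.

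The genotypes were separate in the mean of the 48 genes, and the arrays within each genotype were spread. Averaged over them, the deviation from each gene's mean was 0.044, 0.24, 0.16 and 0.29 on KO arrays 1 to 4, against -0.045, -0.14, -0.20 and -0.35 on WT arrays 1 to 4. The groups did not overlap, and KO array 1 and WT array 1 lay closer to each other than to the far ends of their own groups. KO array 1 was the lowest of the KO arrays for 37 of the 48 genes, KO array 4 the highest of all 8 arrays for 24, and WT array 4 the lowest of all 8 for 25. Cdc6, Tyms and Tk1 shared a pattern of 1 high array, KO array 4, with group SDs of 0.31, 0.34 and 0.29 in KO against 0.043, 0.079 and 0.040 in WT.

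Further genes of the same pathway rose or were not called. Of 59 measured genes (62 listed) 13 rose (22%, against 6.41% of all genes and 12% of those at or above the median level). A fall was called for 0 (2.34% of all genes), the median difference was 0.32 and 53 were above 0 (50.4% of all genes). The 6 with the largest rises were Hells (0.69), a chromatin remodeller of replicating cells, Topbp1 (0.54), which helps fire origins and activates the checkpoint kinase Atr, Ccna2 (0.53), the S phase cyclin, Esco2 (0.53), which locks cohesin on sister chromatids, Rbl1 (0.52), a pocket protein of the retinoblastoma family, and Cdc25a (0.51), the phosphatase that activates Cdk2. Hells had 5.94, 6.18, 5.996 and 5.73 in KO, against 5.67, 5.27, 5.16 and 4.98 in WT, with no overlap (adjusted p = 0.0235). Ccna2 had 7.49, 7.71, 7.64 and 7.43 in KO, against 6.96, 6.94, 7.10 and 7.16 in WT, also with no overlap (adjusted p = 0.0131). Without KO array 2 this list gave 0 calls (2.14% of all genes higher). Without WT arrays 3 and 4 it gave 2 (2.96%), 1 of them Ccna2 (adjusted p = 0.0244). Each of these 6 genes lost its call without KO array 2 (adjusted p 0.0539 to 0.146), and all but Ccna2 also without KO array 3 or WT array 2 or 3. Hells, Topbp1 and Cdc25a lost theirs without KO array 1 as well, Esco2, Rbl1 and Cdc25a without KO array 4, and Rbl1 without WT array 4.

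Mitosis genes, most of whose products act after replication is complete, rose too. Of 29 measured 23 rose (79.3%, against 6.41% of all genes) and 0 fell (2.34% of all genes), with a median difference of 0.57. The smallest p was that of Anln, the anillin of the cleavage furrow (1.06, SE 0.093, adjusted p = 0.00075). The count was 12 without KO array 2, KO array 3 or WT array 3 (2.14%, 2.96% and 2.74% of all genes higher). It was 16 without WT arrays 3 and 4 (2.96%), and 13 after quantile normalization (3.58%) or cyclic loess (3.38%). Whether the share of calls differs between mitosis and replication genes was not tested. On WT array 4 the mitosis genes lay at -0.28, within the -0.33 to -0.24 of the other WT arrays, while the replication genes lay at -0.35 there and at -0.20 to -0.045 on the others. Of 7 D-type cyclins and partners, which drive the earlier part of G1, 2 rose (28.6%, against 6.41% of all genes). Ccnd2 had 10.73, 10.90, 10.84 and 10.65 in KO, against 9.96, 10.06, 9.72 and 9.38 in WT (1.00, adjusted p = 0.00456), and Ccnd1 differed by 0.72 (adjusted p = 0.0165), a call lost without KO array 2 (adjusted p = 0.0631), KO array 3 (0.0536) or WT array 3 (0.0520). Among 17 genes of cell cycle exit and CDK inhibition 2 rose (11.8%) and 1 fell. Of all genes 6.41% rose and 2.34% fell, and of genes at or above the median level 12% rose and 3.22% fell. Cdkn2b, an inhibitor of the kinases Cdk4 and Cdk6, had 5.77, 5.64, 5.68 and 5.64 in KO, against 6.39, 6.57, 6.54 and 6.24 in WT, with all KO arrays below all WT arrays (-0.76, adjusted p = 0.00313). Ccng2, a cyclin of resting cells, rose by 0.57 and E2f6, a repressor, by 0.50. Ccng2 lost its call without KO array 2 or 3 or WT array 3, E2f6 without KO array 1, 2 or 3 or WT array 2 or 3, and both without WT arrays 3 and 4 (adjusted p = 0.118 and 0.0644).

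Of the marker lists for cell types of the skin, the basal keratinocyte list was the one with rises in the main fit. Alternatives in which 1 hair matrix marker rose too included quantile normalization, median centring, both filters on dim genes and array weights. With array weights 1 of 8 dermal fibroblast markers also rose, while 3 fell and the median difference of that list was -1.85 (12.1% of all genes rose and 6.1% fell). In such whole samples a change in the number of cells of a type cannot be told apart from a change in RNA per cell. Of 11 basal keratinocyte markers 10 rose (90.9%, against 6.41% of all genes) and Trp63 (0.51) did not pass. The summed intensity of the 11 was 13866 to 15781 on KO arrays and 8163 to 10847 on WT arrays. The count was 6 without KO array 2 (2.14% of all genes higher) and 7 without WT arrays 3 and 4 (2.96%). Basal markers were lowest on WT array 4, as the replication genes were, but among KO arrays they were lowest on array 4, where the replication genes were highest. Of 7 differentiated keratinocyte markers Casp14 fell (-0.75, a call lost without KO array 1, 2 or 3 or WT array 3), where 2.34% of all genes fell. Among the 7, 5 differed below 0 and 2 above it, Ivl (0.49) and Krt2 (0.22), which did not pass. The sums of the 7 were 16430 to 18324 on KO arrays and 16680 to 21162 on WT arrays. Of 11 hair matrix and inner root sheath markers Krt73 (-1.08) and Tchh (-0.78) fell, both calls lost without KO array 2 (2.34% of all genes fell with all arrays). In that list 7 markers differed below 0 and 4 above it. The 4 were Hoxc13 (0.43, every KO array above every WT array), Shh (0.37), Foxn1 (0.19) and Msx2 (0.091), and they did not pass. The sums of the 11 were 437 to 503 on KO arrays and 465 to 692 on WT arrays.

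Among markers of other cell types, macrophage markers fell. Of 10 macrophage and monocyte markers 6 fell (2.34% of all genes fell), with sums of 203 to 284 on KO arrays and 408 to 680 on WT arrays. Skeletal muscle (10), adipocyte (7) and dermal fibroblast (8) markers gave 0 calls in the main fit. Their sums on KO arrays were 205 to 248, 69.8 to 74.1 and 1270 to 1416, and on WT arrays 248 to 6478, 74.8 to 3193 and 1077 to 7465, each highest on WT array 4. Markers of T cells and NK cells (8) and of B cells (5) gave 0 calls, with sums of 122 to 138 and 28.2 to 34.3 on KO arrays and 127 to 152 and 32.2 to 35.1 on WT arrays. No value of 0 occurs on these arrays and no detection calls were used. The part of these markers in the replication gene differences was not tested. Without the 2 WT arrays with the highest muscle and dermal sums the median difference of the 48 genes was 0.28, against 0.40 with all arrays.

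**Figure D5:**
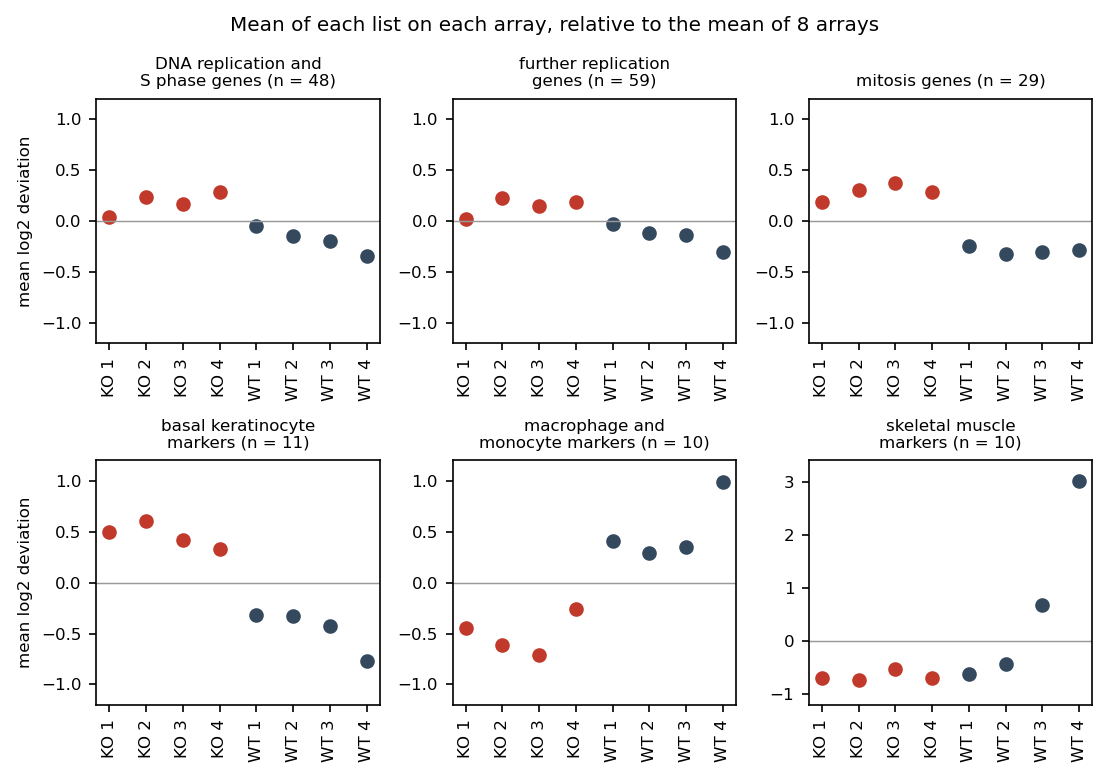
Mean over each list's measured genes of the log2 deviation from the mean of the 8 arrays (vertical axis), by array (KO in red left of WT in dark blue), for replication, further replication and mitosis genes and for basal keratinocyte, macrophage and skeletal muscle markers, with a taller axis for muscle. The replication genes ran from 0.044 to 0.29 on KO arrays and -0.35 to -0.045 on WT arrays, and muscle markers reached 3.02 on WT array 4.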

How the data were processed

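Each probe set has 1 deposited intensity on each array, made by the authors with RMA, a method that corrects, normalizes and summarises probes, per the submitters' processing notes. Not given in the sources used here are the RMA version, its settings and any genome build. The deposited intensities ran from 0.817 to 11173, so they were read as linear and log2 was taken with no pseudocount. Of 35519 probe sets 21780 carry exactly 1 gene symbol in the platform annotation, 1605 several and 12134 none. Of several probe sets for a gene (998 genes) the brightest was kept, which left 19935 genes. KO was compared with WT in limma 3.58.1 (R 4.3.3, lmFit and eBayes, two-sided, all 8 arrays, Benjamini-Hochberg over all genes, threshold 0.05, 95% intervals from the moderated fit). The fit was run on simulated data with independent noise for each gene and no array effects. That run cannot show how the fit behaves with array effects such as those on WT array 4. The 48 genes, the lists and the alternatives were chosen with earlier results of these data known. Values on every array are given for the gene with the smallest and the largest p in each of 10 roles. Other called genes, the 6 largest rises among further replication genes and the leading call of each neighbouring list are named, and Pcna, Tk1, Gins4, Pole3, Pole4, E2f6, Ccnd1 and the named markers were added after their values were seen. Alternatives covered other normalizations, dim-gene filters, probe set rules, priors and thresholds, and each array left out. A fit without WT arrays 3 and 4 and a fit with Y-linked genes as covariate were added after the data were seen.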

Additional observations from a re-analysis of the deposited data

Results flagged for a closer look

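Group values (48 genes, Adam10 and the mean of the 48, in each genotype) were tested for an array far from the other 3 of its group. Chance gives about 1 in 20, or 5%, where group values are independent. Here they share the same 8 arrays, so an excess over chance cannot be judged. Of 100 group values tested, 12 held such an array. In KO these were Mcm6 on array 2 (7.97 against 7.77 to 7.78 on the other arrays), Rfc1 on array 4 (6.70 against 6.41 to 6.46), Rrm1 on array 1 (8.26 against 8.47 to 8.48), Chaf1b on array 1 (6.25 against 6.49 to 6.51) and Ccne2 on array 2 (3.72 against 4.10 to 4.16). In WT they were Cdt1 on array 4 (5.91 against 6.53 to 6.65), Rfc1 on array 1 (6.56 against 6.35 to 6.37), Rrm1 on array 4 (7.74 against 7.98 to 8.02), Chaf1a on array 2 (5.86 against 5.60 to 5.64), Ccne2 on array 3 (3.44 against 3.86 to 3.94), Brca2 on array 4 (3.70 against 4.52 to 4.62) and Adam10 on array 3 (7.06 against 7.33 to 7.39).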

How the results depend on the processing

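No called replication gene changed direction under any alternative run. The 16 rises (6.41% of all genes) became 10 after quantile normalization (3.58% of all genes), 7 after cyclic loess (3.38%), 7 with all probe sets tested (3.18%), 25 among genes above the array median on 4 arrays or more (18.5% of those genes), 2 without WT arrays 3 and 4 (2.96%), 10 with Y-linked genes as covariate (4.96%), and 2 or 26 at a threshold of 0.01 or 0.10 (1.76% or 10.3%). With 1 array left out they ran from 4 to 19. Their median difference was 0.28 after cyclic loess. The 13 rises among 59 further replication genes became 2 after quantile normalization (3.58% of all genes) or cyclic loess (3.38%). They became 3 with all probe sets (3.18%), 26 with array weights (12.1%) and 2 without WT arrays 3 and 4 (2.96%). Under the filters on dim genes they were 22 of 49 and 24 of 51 (18.4% and 18.5% of those genes). At thresholds of 0.01 and 0.10 they were 0 and 24 (1.76% and 10.3%). With 1 array left out they ran from 0 (2.14%) to 16 (7.11%). Their median was 0.21 with log2 of the value plus 16. Adam10 passed after quantile normalization (-0.49) or cyclic loess (-0.52), with log2 of the value plus 16 (-0.32), and under the dim filters and the trended prior (-0.36). Of all calls 73.2% were higher, against 56.5% after quantile normalization and 50.8% after cyclic loess. Among uncalled genes signs turned for Rfc1 (-0.033), Rpa1 (-0.012), Tyms (-0.0081), Ccne1 (-0.044) and E2f2 (-0.047) after quantile normalization. After cyclic loess they turned for Rfc1 (-0.066), Rpa1 (-0.038), Tyms (-0.042), Ccne1 (-0.044) and E2f2 (-0.045), and without WT arrays 3 and 4 for Mcm10 (-0.00024), E2f2 (-0.072) and E2f8 (-0.052). With 1 array left out E2f2 ran from -0.022 to 0.13, Cdc6 from -0.038 to 0.19, Tyms from -0.054 to 0.19 and Ccne1 from -0.037 to 0.15. The cause of these changes was not tested. The filters and the use of all probe sets changed the number of genes tested and also the set of genes behind the moderated fit, and the 2 were not separated. Signal over background could not be judged without detection calls. No paired analysis was possible because the labels give no replicate numbers shared between the genotypes.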
